A study of Mus musculus with 12 samples.

Results

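Ptprc encodes CD45, a receptor tyrosine phosphatase carried on the surface of white blood cells and their progenitors. Within cells of the aorta-gonad-mesonephros region (AGM) that the labels call haematopoietic stem cells (HSC), the cells with at least 1 unique molecular identifier (UMI) of Ptprc were set against the cells with 0. The AGM is the part of the mouse embryo around the dorsal aorta where the first stem cells of the blood form. The members were thus chosen by their raw Ptprc UMI count alone. Wells entered with 1000 or more genes, 3000 or more UMIs and a mitochondrial share of UMIs below 20%. That left 143 AGM cells of 1020 cells in the whole series, of which 53 had Ptprc and 90 did not. Plate 1 held 39 cells with and 56 without Ptprc, and plate 2 held 14 with and 34 without.

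The series holds 12 plates of 96 wells from AGM, fetal liver and bone marrow, with 1 sorted cell per well, and belongs to a study of lineage tracing and clonal memory in blood stem cells. Nuclei were taken out of each lysed cell on magnetic beads, and the polyadenylated RNA of the cytoplasm was sequenced by a modified tagged reverse transcription protocol (scSTRT-seq). For the AGM plates the labels give the tissue as AGM and the cell type as HSC, and name no strain, genotype, transgene, treatment, embryo age or sort marker. Every item these labels give is the same for both classes, which were split by the Ptprc count. Both AGM plates carry 1 origin code, and the labels do not say whether that code is 1 embryo or a pool. Cells with Xist alone and cells with Y chromosome genes alone were seen in both plates, so each plate held cells of more than 1 animal. Because the plates share that code, the p-values below measure the spread between these 2 plates, which may be technical. That spread was taken from a trend over all genes, so a gene's own disagreement between the plates did not count. The plates use the same set of 96 well barcodes, so a cell is named by its plate and its well.

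In the embryo, blood stem cells arise from haemogenic endothelium lining the dorsal aorta, an arterial vessel. During this endothelial-to-haematopoietic transition, cells that carry endothelial junction and receptor proteins and respond to Notch take on the transcription factor Runx1, round up and leave the vessel wall. CD45 is known to appear on the cell surface late in this sequence, after Runx1, Kit and CD41. In fetal liver and adult marrow, blood stem cells carry CD45 throughout.

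Ptprc lies on the minus strand of chromosome 1 at 138062861 to 138175708 (GRCm38). Its UMIs chose the classes, so its values are given here as a description. In plate 1, 14 cells had exactly 1 Ptprc UMI, 1 cell had 2 and 24 cells had at least 5, with a highest count of 56. In plate 2, 5 cells had exactly 1, 1 cell had 2 and 8 cells had at least 5, with a highest count of 104. No cell of either plate had 3 or 4, so the members just inside the threshold stood apart from those with many UMIs. The single cell with most Ptprc UMIs held 11.5% of all Ptprc UMIs of the class in plate 1 and 36.5% in plate 2. Of the 49 wells left out as empty or shallow, the 1 of plate 1 had 2657 UMIs in all and 1 of Ptprc, and the 48 of plate 2 had a median of 24 UMIs and 0 of Ptprc.

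A cell with more UMIs was more often one with Ptprc. In plate 1, 31.2% of the cells below the plate's median UMI count had Ptprc and 51.1% of those above it. The same shares were 12.5% and 45.8% in plate 2. The median total was 171244 UMIs with and 145176 without Ptprc in plate 1, and 210656 with and 145310 without in plate 2. For this reason each cell of 1 class was paired with a cell of the other class in the same plate whose total lay within 0.1 on the log10 scale. This gave 36 pairs of cells in plate 1 and 12 in plate 2, and the matched medians were 170046 with and 160605 without in plate 1 and 193489 with and 188036 without in plate 2. Cells of a class were summed within the plate, so 4 sums entered the test, with 6410802, 6171091, 2481707 and 2375643 UMIs without Ptprc itself.

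**Figure D1:**
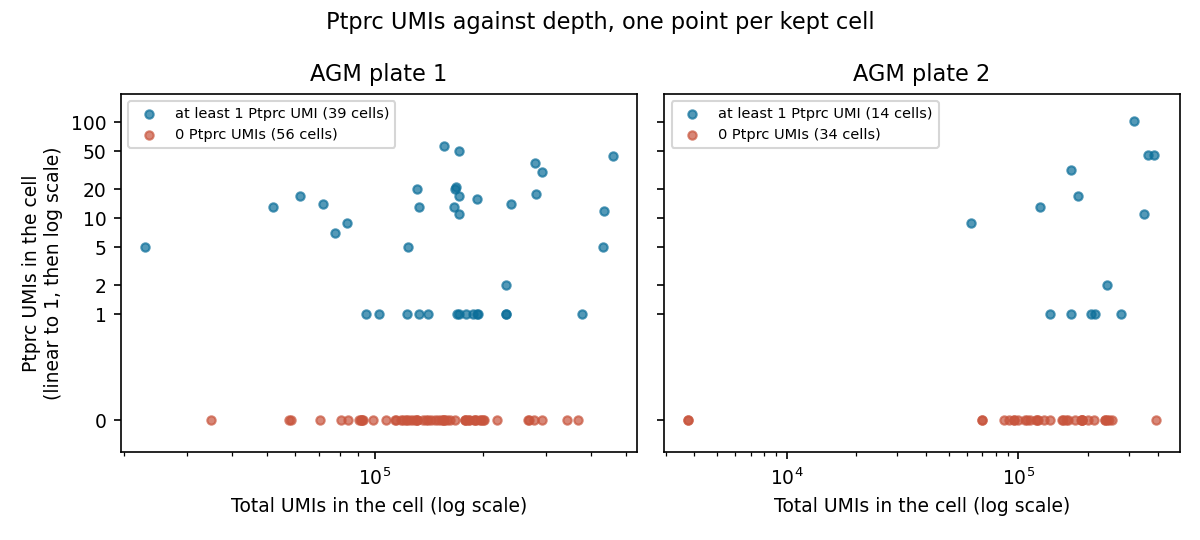
Ptprc UMIs of each kept AGM cell (vertical axis, linear up to 1 and logarithmic above) against the cell's total UMIs (horizontal axis, logarithmic), for plate 1 and plate 2. Each point is 1 cell, and no cell lies between 2 and 5 Ptprc UMIs.

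The share of AGM cells with a Ptprc UMI was 41.1% in plate 1 (exact 95% binomial interval 31.1% to 51.6%, counting error only) and 29.2% in plate 2 (17.0% to 44.1%). After each cell was thinned to 20000 UMIs the shares were 21.1% and 17.4%. Thinned in the same way, the 5 fetal liver plates lay between 28.6% and 52.8% and the 5 bone marrow plates between 26.1% and 44.7%, so no plate of either tissue was as low as an AGM plate. Unthinned, fetal liver plates lay between 38.5% and 69.5% and bone marrow plates between 31.2% and 64.8%, at lower depths per cell than in AGM. Thinning kept 141 AGM, 419 fetal liver and 392 bone marrow cells. Summed over cells, Ptprc reached 30.4 and 34.1 CPM (UMIs per 1000000 UMIs) in the AGM plates, 35.8 to 97.3 in fetal liver and 63.2 to 158 in bone marrow. Fewer cells with the transcript and less transcript per cell cannot be told apart in such sums. No cell type that should lack Ptprc was at hand to give its background level, and the emptiest wells were too shallow to do so.

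A total of 6 genes passed the test between the matched classes, named below, and are introduced here with the DNA upstream of 1 that rose and 1 that fell. The regions were taken from the RefSeq promoter table of GRCm38.p6, which held 5 of the 6 genes and Ptprc, and only the 250 bases before the gene's first listed start are shown. Hk2 and Crip2 were chosen because their regions lie wholly outside the annotated gene.

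Hk2, chr6:82774455-82774704, minus strand: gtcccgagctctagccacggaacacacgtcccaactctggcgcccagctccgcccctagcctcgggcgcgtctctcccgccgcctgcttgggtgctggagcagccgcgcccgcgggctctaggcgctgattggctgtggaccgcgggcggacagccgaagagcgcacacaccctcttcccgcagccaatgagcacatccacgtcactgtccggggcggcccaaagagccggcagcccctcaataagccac
Crip2, chr12:113139986-113140235, plus strand: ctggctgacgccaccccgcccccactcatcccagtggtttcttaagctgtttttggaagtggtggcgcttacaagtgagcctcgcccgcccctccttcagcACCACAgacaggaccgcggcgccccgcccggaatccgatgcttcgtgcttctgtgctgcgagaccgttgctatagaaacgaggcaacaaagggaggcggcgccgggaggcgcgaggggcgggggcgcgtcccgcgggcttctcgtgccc

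The following 3 motifs were searched on both strands in these windows, TGTGGT (or ACCACA) for RUNX factors, GAGGAAG (or CTTCCTC) for PU.1 and ACAATG (or CATTGT) for SOX factors. Capitals in the Crip2 region mark the RUNX match, and the Hk2 region held none of the 3. Among all 27025 promoters of the table, 14.2% held the RUNX motif, 10.4% the PU.1 motif and 11.0% the SOX motif in a window of this length. A match is a string of letters, and no binding was measured.

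Cells with Ptprc had more RNA of Rac2, Klf6 and Hk2 and less of Id3, Crip2 and Tnfaip2. These 6 of 10699 genes tested, or 0.0561%, passed edgeR's quasi-likelihood test at a Benjamini-Hochberg adjusted p under 0.05, with plate as a block. The 3 higher and the 3 lower genes each made up 0.028% of the genes tested. In each of the 6, both sums of 1 class lay above both sums of the other. This does not set the 6 apart, because the same held for uncalled genes with small changes, such as Spi1 (log2 fold change 0.06) and B2m (0.14). The share of all genes for which it held was not counted. Levels below are CPM of the matched sums, log2 fold changes are with minus without Ptprc, and the error after ± is the absolute change over the square root of F, an approximate standard error.

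Rac2 encodes a small GTPase that is largely limited to blood cells. It stood at 386 CPM with and 209 without Ptprc in plate 1, and at 568 with and 267 without in plate 2. Rac2 rose by a log2 fold change of 0.99 ± 0.20 (edgeR adjusted p = 0.00889). It was spread over many cells: 35 of 36 matched cells with and 36 of 36 without Ptprc had a Rac2 UMI in plate 1, but the median cell held 191 CPM with and 50.1 CPM without.

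Klf6, a zinc finger transcription factor that many cells switch on quickly after a stimulus, stood at 140 CPM with and 81.5 without in plate 1 and at 254 with and 42.0 without in plate 2. Its log2 fold change was 1.66 ± 0.39 (edgeR adjusted p = 0.0390). Hk2, the hexokinase that commits glucose to glycolysis, measured 218 CPM with and 147 without in plate 1 and 325 with and 83.6 without in plate 2. Hk2 rose by 1.25 ± 0.29 on the log2 scale (edgeR adjusted p = 0.0390). The median matched cell held 21.4 CPM of Hk2 with and 21.6 without in plate 1, so the gap of the sums was not seen there. In plate 2 the medians were 155 with and 9.81 without, and a single cell held 57.5% of the Hk2 UMIs without Ptprc. For Klf6 and Hk2 the gap of the sums was wider in plate 2, where the sums without Ptprc were also lower than in plate 1.

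Id3, which blocks DNA binding of helix-loop-helix factors and is a classical target of BMP signals, had the largest change of the 6. It stood at 94.2 CPM with and 168 without in plate 1, and at 13.9 with and 175 without in plate 2, a log2 fold change of -2.15 ± 0.45 (edgeR adjusted p = 0.00889). The sums without Ptprc were close to each other in the 2 plates, and the sums with Ptprc differed. The same held for Crip2, a LIM domain protein of the heart and vessels, at 137 CPM with and 204 without in plate 1 and 25.0 with and 200 without in plate 2 (log2 fold change -1.73 ± 0.38, edgeR adjusted p = 0.0202). Tnfaip2, a gene first found in endothelial cells given tumour necrosis factor, stood in the matched sums at 64.1 CPM with and 169 without in plate 1 and at 60.0 with and 215 without in plate 2. Tnfaip2 fell by 1.62 on the log2 scale, with an error of 0.38 (edgeR adjusted p = 0.0390). In plate 2 a single cell held 66.2% of its UMIs with Ptprc. Averaged over all kept cells of plate 2, Tnfaip2 stood at 133 CPM per cell with and 141 without, so the gap of the matched sums was not seen there.

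**Figure D2:**
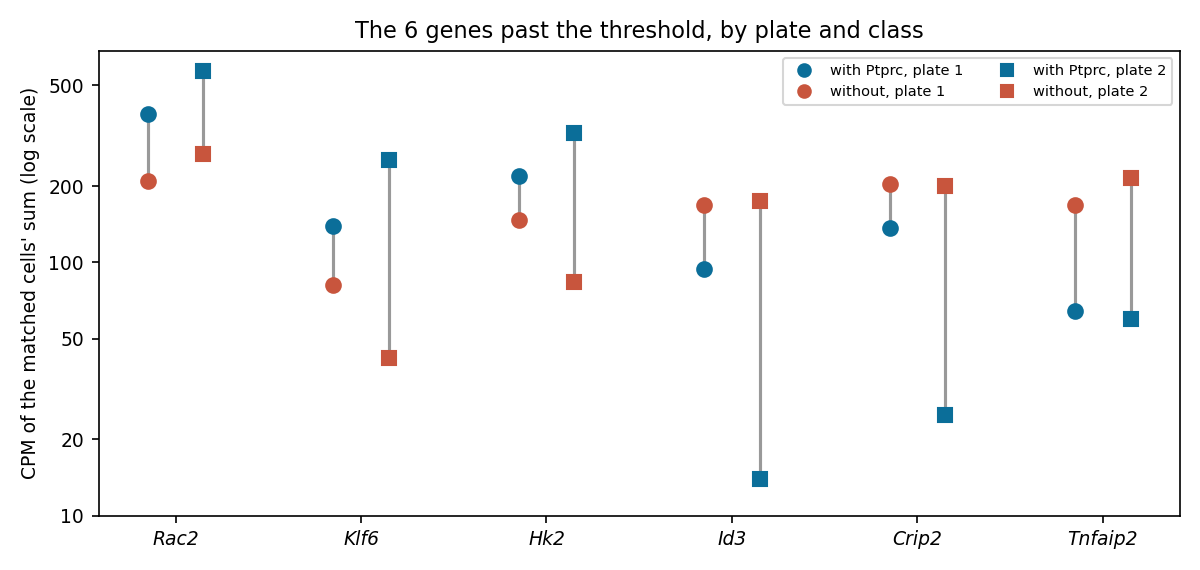
CPM of the matched cells' sums (vertical axis, logarithmic) for the 6 genes past the threshold; circles are plate 1, squares plate 2, blue with Ptprc and red without, and lines join the classes of 1 plate. For Rac2, Klf6 and Hk2 both blue points lie above both red points, and for Id3, Crip2 and Tnfaip2 below; Id3 reaches 13.9 CPM with Ptprc in plate 2.

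On the genome (GRCm38, GENCODE) Rac2 spans 78559167 to 78572783 on the minus strand of chromosome 15, and Klf6 spans 5861482 to 5870394 on the plus strand of chromosome 13. Hk2 spans 82725025 to 82774454 on the minus strand of chromosome 6, and Id3 spans 136143497 to 136145755 on the plus strand of chromosome 4. Crip2 and Tnfaip2 both lie on the plus strand of chromosome 12, Crip2 at 113140236 to 113145506 and Tnfaip2 at 111442469 to 111455018. When the cell with most UMIs of the gene was taken out of each sum, all 6 kept their direction in both plates. DESeq2 on the same matched sums called 147 genes (1.37%; 79 higher, 0.738%, and 68 lower, 0.636%), the 6 among them.

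Which of the 6 passed depended on the cells summed, although their signs were as given here in each of these fits. With cells that had UMIs of at least 3 macrophage genes left out and the rest matched anew, 0 genes passed (346 at an unadjusted p under 0.05). A closer match in depth, within 0.05, left Id3 and Rac2 past the threshold, and cells above the plate's median UMIs left Rac2. Thinning left Id3, Crip2 and Rac2, and at least 2 Ptprc UMIs against 0 left Rac2, Hk2, Crip2 and Tnfaip2. Klf6 was called in 4 of 16 such alternatives, and Rac2 in 9.

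A single plate 2 cell with 17 Ptprc UMIs and 180800 UMIs in all had the highest leukocyte share of any kept AGM cell. It took 1.60% of its UMIs from the leukocyte list, 1.72% from immediate early genes, 0.556% from granule genes and 0.0985% from endothelial genes, and it had UMIs of 6 macrophage genes. This cell was the one with most UMIs of Klf6, Jun, Tyrobp, Mpo, Srgn, Plac8, Cd52, Cd68, Cst7 and Rgs1 among the matched plate 2 cells with Ptprc. It held 37.9% of the Klf6, 36.7% of the Tyrobp and 33.1% of the Mpo UMIs of that sum. With this cell left out and the rest matched anew (chosen after seeing the data), edgeR called 0 genes, with 390 at an unadjusted p under 0.05. The log2 fold changes were then 0.86 for Rac2, 1.42 for Klf6, 1.21 for Hk2, -2.20 for Id3, -1.77 for Crip2 and -1.61 for Tnfaip2. The median log2 fold change without it was 0.60 for the leukocyte list, 0.73 for immediate early genes, 0.41 for granule genes and -0.58 for the endothelial list.

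Without matching, all 143 cells gave 93 called genes of 11409 tested, or 0.815% (36 higher, 0.316%, and 57 lower, 0.5%). All 93 had the same sign in the matched sums, and the 6 genes above were among them. These unmatched classes differ in depth, so the unmatched counts are given below only beside the matched ones.

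Leukocyte genes were mostly higher in the cells with Ptprc. The list held 34 genes of white blood cells other than Ptprc, of which 31 were tested. Rac2 passed the test (0.028% of all genes tested were called higher), 18 were higher with Ptprc in both plates and 1 was lower in both. Among all genes tested 24.9% were higher in both plates and 26.2% lower in both. The median log2 fold change of the list was 0.83, against -0.0018 over all genes tested, and it was 0.29 in plate 1 and 1.28 in plate 2. In the unmatched cells 5 members were called higher (Rac2, Tyrobp, Fcer1g, Lsp1 and Cd52) and none lower, and with DESeq2 4 were called higher and none lower. Over all genes, 0.316% were called higher in the unmatched cells and 0.738% by DESeq2.

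Other blood genes outside the 6 are given as values, chosen after their values were seen. Tyrobp, the adaptor that passes signals from activating immune receptors, stood at 186 CPM with and 118 without in plate 1 and at 440 with and 160 without in plate 2 (log2 fold change 1.06 ± 0.27, edgeR adjusted p = 0.0663). Its classes did not overlap, which also held for uncalled genes with small changes.

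Plac8 and Cd52 rested on few cells. Plac8, a small cysteine-rich protein of myeloid and lymphoid progenitors, stood at 118 CPM with and 46.1 without in plate 1 and at 202 with and 37.7 without in plate 2 (edgeR adjusted p = 0.0546). A single cell held 56.9% of its UMIs with Ptprc in plate 1 and 77.4% in plate 2, and without the top cell of each sum its log2 fold changes were 0.59 and 0.54. Cd52, a small surface glycoprotein of leukocytes, stood at 62.3 with and 23.2 without and at 135 with and 16 without (edgeR adjusted p = 0.210). A single cell held 47.1% of its UMIs with and 79.7% without Ptprc in plate 1, and 76.5% with Ptprc in plate 2. Without the top cell of each sum the Cd52 log2 fold changes were 2.73 and 1.08.

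Seen cell by cell, the leukocyte list without Ptprc took 0.338% of a cell's UMIs at the median with Ptprc and 0.204% without in plate 1, and 0.435% and 0.269% in plate 2, over all kept cells. In plate 1, 9 of 56 cells without Ptprc lay above the median of the cells with it, and in plate 2 it was 3 of 34. At 20000 UMIs per matched cell, a median of 13 leukocyte genes was seen with and 10 without in plate 1, and 17.5 with and 12 without in plate 2. The ranges overlapped widely, from 7 to 24 genes with and 6 to 23 without in plate 1.

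Among genes of granules and early myeloid cells, 9 of 16 were tested. None passed (background 0.028%), 4 were higher in both plates and none lower in both, and the median log2 fold change was 0.50. Srgn, the core protein of granule proteoglycans, stood at 305 CPM with and 256 without in plate 1 and at 677 with and 383 without in plate 2 (edgeR adjusted p = 0.494). Mpo, the peroxidase of neutrophil granules, stood at 372 with and 273 without, and at 387 with and 208 without (edgeR adjusted p = 0.399). In the unmatched cells Srgn, Mpo and Cst7 were called higher (0.316% of all genes were).

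Several genes with the largest folds of one sign in both plates were sparse. Cst7, a cysteine protease inhibitor of cytotoxic and myeloid cells, stood at 32.0 CPM with and 0.812 without in plate 1 and at 85.4 with and 8.67 without in plate 2 (log2 fold change 4.20 ± 1.06, edgeR adjusted p = 0.0663). A single cell held 62.9% of its UMIs with Ptprc in plate 1 and 89.3% in plate 2, and without the top cells its plate 2 log2 fold change was 0.54. Rgs1, a regulator of G protein signals in lymphocytes, likewise stood at 32.5 with and 4.54 without and at 73.1 with and 8.23 without, and its plate 2 log2 fold change was 0.20 without the top cells. Other uncalled genes of this kind kept wide folds without the top cells. In plates 1 and 2 these were 2.26 and 5.66 for Dbt, 3.39 and 4.27 for Rnf113a2, and 2.08 and 1.37 for Rc3h1. Tbkbp1, which was lower with Ptprc, then stood at -1.64 and -1.98. It had a UMI in 31 of 36 matched cells without Ptprc in plate 1 and 12 of 12 in plate 2.

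Genes of the vessel wall were mostly lower in the cells with Ptprc. Of 33 endothelial genes 32 were tested; none passed the test (0.028% of all genes were called lower), 22 were lower with Ptprc in both plates and 3 were higher in both, where 26.2% of all genes were lower in both. The median log2 fold change was -0.59, with -0.42 in plate 1 and -0.61 in plate 2. In the unmatched cells 7 members were called lower (Kdr, Cldn5, Icam2, Plvap, Ramp2, Ecscr and Egfl7), and DESeq2 called 5 lower in the matched sums. Over all genes, 0.5% were called lower in the unmatched cells and 0.636% by DESeq2.

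Egfl7 and Ecscr were the most abundant endothelial genes. Egfl7, a secreted protein of the vessel wall, stood at 605 CPM with and 720 without in plate 1 and at 453 with and 572 without in plate 2 (log2 fold change -0.29 ± 0.15). Ecscr, an endothelial surface protein that regulates cell movement, stood at 450 with and 605 without and at 282 with and 477 without (log2 fold change -0.59 ± 0.17, edgeR adjusted p = 0.209). Cdh5, the cadherin of endothelial junctions, named after its values were seen, stood at 135 with and 154 without in plate 1 and at 44.5 with and 120 without in plate 2 (log2 fold change -0.80 ± 0.41). In each of these 3 genes the 2 plates gave the same direction.

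Other endothelial genes, chosen after their values were seen, had wider gaps. Icam2, an adhesion molecule of endothelium and leukocytes, stood at 223 CPM with and 298 without in plate 1 and at 81.8 with and 284 without in plate 2 (log2 fold change -1.09 ± 0.27, edgeR adjusted p = 0.0663). Kdr, the main VEGF receptor of endothelium, stood at 50.2 with and 83.8 without in plate 1 and at 2.38 with and 81.0 without in plate 2 (edgeR adjusted p = 0.224). The 2.38 CPM rest on 6 UMIs in 3 of 12 cells. Cldn5, the claudin of endothelial tight junctions, stood at 248 with and 379 without and at 99.3 with and 221 without (edgeR adjusted p = 0.209). For Icam2 and Kdr the gap was wider in plate 2.

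Arterial and Notch genes lay on the same side as the endothelial ones. Of 21 genes 17 were tested and none passed (0.0561% of all genes were called); 9 were lower with Ptprc in both plates and 2 were higher in both. The median log2 fold change was -0.62. That median is sensitive to which cells and genes enter, and was -1.50 in the unmatched cells, where Bmx, Gja4, Gja5 and Nrp1 were called lower. DESeq2 called 3 members lower in the matched sums. Over all genes, 0.5% were called lower in the unmatched cells and 0.636% by DESeq2.

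Gja4, a connexin of arterial endothelium, stood at 95 CPM with and 170 without in plate 1 and at 15.5 with and 133 without in plate 2 (log2 fold change -1.90 ± 0.47, edgeR adjusted p = 0.0604). Gja5, the connexin that marks arteries beside it, stood at 37.5 with and 82.6 without and at 8.34 with and 75 without (edgeR adjusted p = 0.504). Nrp1, neuropilin 1, which binds semaphorins and helps VEGF receptors, stood at 144 with and 213 without and at 32.2 with and 174 without (log2 fold change -1.46 ± 0.37, edgeR adjusted p = 0.0663). These genes reached similar levels in both plates without Ptprc and were lowest with Ptprc in plate 2.

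Hes1, the transcriptional repressor that Notch switches on, was the most abundant of the list and stood at 343 CPM with and 405 without in plate 1 and at 137 with and 277 without in plate 2 (log2 fold change -0.62 ± 0.23, edgeR adjusted p = 0.653). Bmx, a tyrosine kinase of arterial endothelium, stood at 78.4 with and 122 without in plate 1, and in plate 2 at 0.795 with, from 2 UMIs, and 41.2 without. Outside the list, Efna1, an ephrin ligand, stood at 88.1 with and 152 without and at 8.34 with and 97.9 without (log2 fold change -2.06 ± 0.54, edgeR adjusted p = 0.0840). Gja4, Gja5, Bmx and Efna1 are named after their values were seen.

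**Figure D3:**
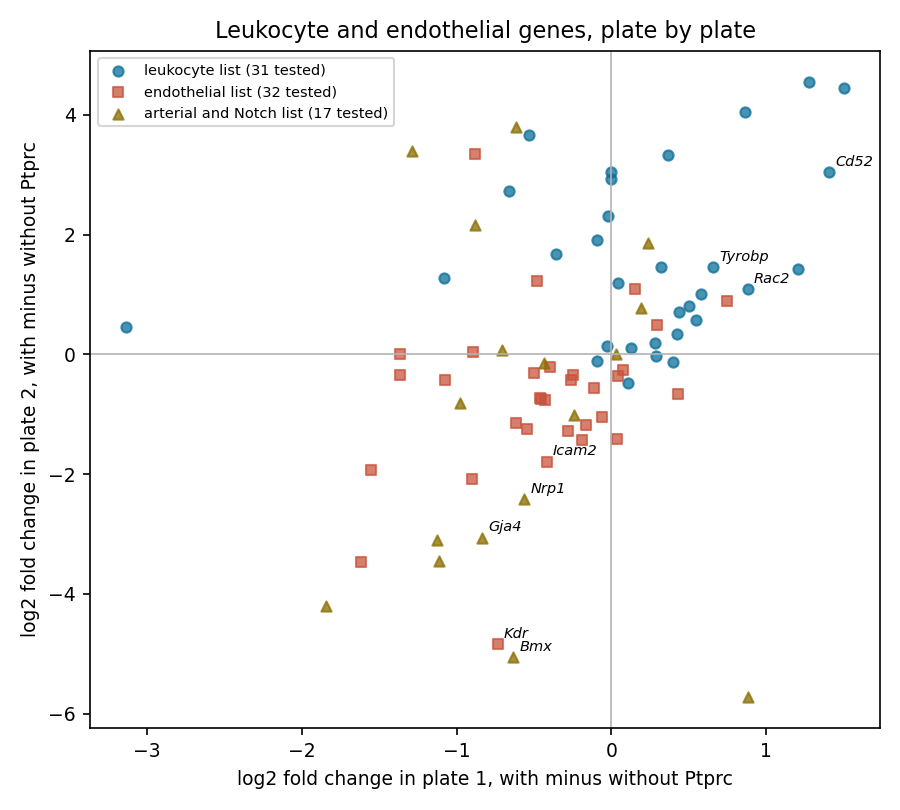
Log2 fold change with minus without Ptprc in plate 1 (horizontal axis) and plate 2 (vertical axis) for tested members of the leukocyte list (31, blue circles), the endothelial list (32, red squares) and the arterial and Notch list (17, brown triangles); each point is 1 gene. Of the circles 18 lie above and right of 0, and 22 squares and 9 triangles lie below and left of 0.

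Endothelial genes did not divide the classes sharply. The endothelial list took 0.354% of a cell's UMIs at the median with and 0.572% without Ptprc in plate 1, and 0.276% and 0.469% in plate 2. In plate 1, 10 of 39 cells with Ptprc lay above the median of the cells without, and in plate 2 it was 1 of 14. The arterial list took 0.0588% with and 0.118% without in plate 1, and 0.0171% and 0.0809% in plate 2. At 20000 UMIs per matched cell, 17.5 endothelial genes were seen with and 18.5 without in plate 1, and 14.5 with and 15 without in plate 2.

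Most cells of both classes had a UMI of endothelial genes. Cdh5 had a UMI in 37 of 39 cells with and 55 of 56 without Ptprc in plate 1, and in 14 of 14 and 33 of 34 in plate 2. Pecam1, an adhesion protein of endothelium and many blood cells, had one in 36 of 39 and 54 of 56, and in 14 of 14 and 30 of 34. At 20000 UMIs per cell the share with Cdh5 was 69.2% with and 76.8% without Ptprc in plate 1 and 64.3% and 53.1% in plate 2, and the share with Pecam1 was 87.2% and 71.4%, and 64.3% and 68.8%. What part free RNA has in these shares was not tested. In fetal liver and bone marrow Cdh5 stood at most at 6.79 CPM in any plate, and the AGM plates stood at 87.5 and 137. Gja4 stood at most at 0.608 CPM there and Crip2 at most at 2.83. Id3 and Tnfaip2, also called lower with Ptprc, were not that low in both tissues. Id3 stood at 71.2 to 170 CPM in fetal liver plates and at most at 0.398 in bone marrow plates. Tnfaip2 stood at most at 12.5 CPM in fetal liver plates and at 30.4 to 80.1 in bone marrow plates.

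Within a class, cells with more leukocyte RNA had less endothelial RNA. Across the 56 cells without Ptprc in plate 1 the Spearman rank correlation between the 2 lists' shares of UMIs was -0.68, and across the 39 with Ptprc it was -0.85. In plate 2 it was -0.49 across 34 cells without and -0.66 across 14 with. The cells of a plate share a library and depth differs among them, the 2 shares are parts of 1 total, and the values describe these cells only. The 2 lists ran against each other inside both classes of both plates, not only between the classes.

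**Figure D4:**
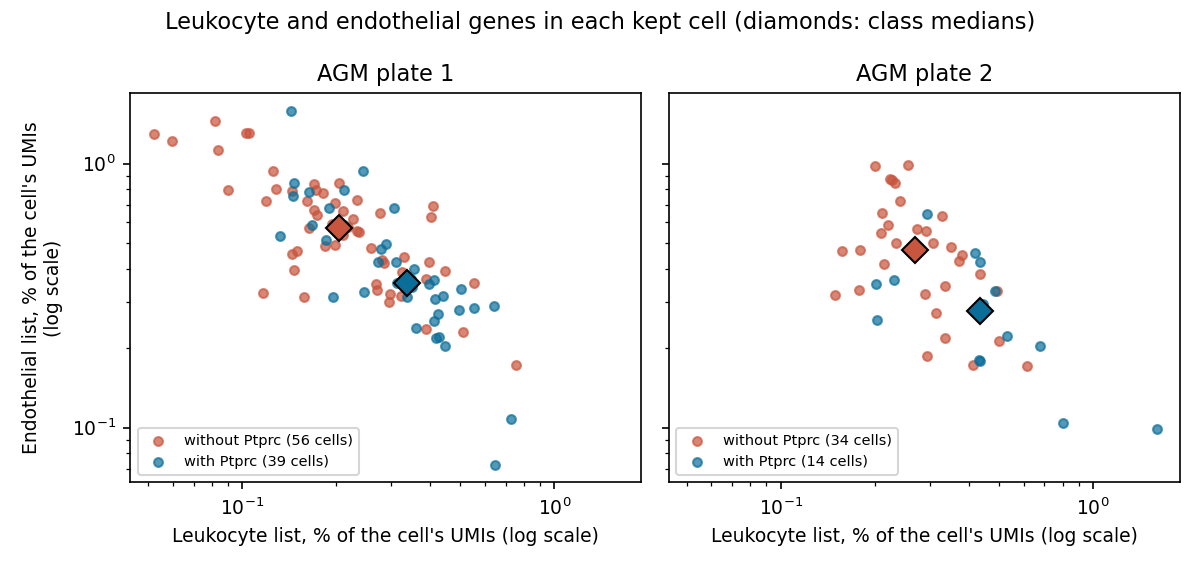
Share of a cell's UMIs from the leukocyte list (horizontal axis, percent, logarithmic) and the endothelial list (vertical axis, percent, logarithmic) in each kept cell with (blue) and without (red) Ptprc; diamonds are class medians. The blue diamonds lie to the lower right, at 0.338% and 0.354% in plate 1 and 0.435% and 0.276% in plate 2, and the clouds overlap.

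The number of Ptprc UMIs was then split into 0, 1 or 2, and at least 5, a split chosen after seeing the counts. All kept cells entered this split, not matched on depth. Their median totals in that order were 145176, 179168 and 167928 UMIs in plate 1, and 145310, 210656 and 248743 in plate 2. What part depth has in the values of these steps was not tested. In plate 1 the 15 cells with 1 or 2 Ptprc UMIs had vessel genes at levels near those of the 56 without. The endothelial list took 0.584% and 0.572% of UMIs, the arterial list 0.139% and 0.118%, and Crip2 averaged 283 and 265 CPM per cell. The 24 cells with at least 5 stood at 0.331%, 0.0378% and 42.0 CPM. Gja4 averaged 236 CPM per cell at 0 Ptprc UMIs, 176 at 1 or 2 and 32.4 at 5 or more. These means are over cells of 1 plate and carry no test.

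In plate 2 the cells with 1 or 2 Ptprc UMIs were closer to those with many. Gja4 averaged 155, 26.5 and 4.24 CPM per cell over 34, 6 and 8 cells, and Crip2 187, 32.4 and 13.5. Rac2 was graded in both plates, at 131, 218 and 442 CPM per cell in plate 1 and 192, 470 and 550 in plate 2. Hk2 was graded too, at 80.5, 108 and 213, and 91.7, 228 and 366, and so was Id3 downward, at 263, 125 and 79.0, and 243, 15.9 and 10.7. Klf6 and Tnfaip2 were not graded in every plate. Klf6 averaged 90.3, 247 and 88.0 CPM per cell in plate 1, so its mean at 5 or more was no higher than at 0, and 74.2, 94.1 and 332 in plate 2. Tnfaip2 averaged 178, 109 and 52.5 in plate 1 and 141, 34.2 and 207 in plate 2, where the cells with most Ptprc stood highest. The leukocyte list gave 10, 11 and 14 genes per thinned cell in plate 1 and 12, 17 and 19 in plate 2. With at least 5 Ptprc UMIs against 0, matched anew, 9 genes passed, Hk2 as higher and Tnfaip2 as lower among them. Plate 2 then held 6 cells a class, and the Tnfaip2 call went against its plate 2 means above.

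Immediate early genes, which cells switch on within minutes of a stimulus or of handling, leaned the same way as leukocyte genes. Of 30 genes 26 were tested; 1 passed as higher, Klf6 (background 0.028%), 18 were higher in both plates and 1 was lower in both. The median log2 fold change was 1.05, with 0.33 in plate 1 and 1.58 in plate 2. Jun, a subunit of the AP-1 transcription factor, stood at 355 CPM with and 215 without in plate 1 and at 228 with and 113 without in plate 2 (edgeR adjusted p = 0.224; named after its values were seen). Per matched cell the list took 0.137% of UMIs with and 0.113% without in plate 1, and 0.119% and 0.0809% in plate 2, where the cell with the highest leukocyte share, described above, reached 1.72%. The part of cell handling in these values was not tested.

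Genes of antigen presentation on MHC class I also leaned higher. Of 21 genes 17 were tested, none passed (background 0.028%), 13 were higher in both plates and none was lower in both, with a median log2 fold change of 0.56. The most abundant members barely differed. B2m, the light chain of MHC class I, stood at 988 CPM with and 933 without in plate 1 and at 1104.5 with and 969 without in plate 2, and Psme1, a proteasome activator subunit, stood at 484 with and 427 without and at 533 with and 547 without. Psmb8, a subunit of the immunoproteasome named after its values were seen, stood at 75 with and 24.7 without and at 195 with and 79.7 without (log2 fold change 1.44 ± 0.47, edgeR adjusted p = 0.350).

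Of 38 interferon response genes 31 were tested, none passed (background 0.028%), 15 were higher in both plates and 4 lower in both (24.9% and 26.2% of all genes), with a median log2 fold change of 0.72. The list's most abundant genes, the antiviral membrane proteins Ifitm2 and Ifitm3, had log2 fold changes of -0.12 ± 0.11 and -0.09 ± 0.12. Summed per cell, the list took 0.385% of UMIs with and 0.457% without in the matched cells of plate 2, against 0.443% with and 0.377% without in plate 1. The list's total share therefore pointed in opposite directions in the 2 plates.

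Transcription factors of early blood, taken as a list, leaned to neither class. Of 23 such factors 21 were tested and none passed. In both plates 7 were higher and 5 lower (24.9% and 26.2% of all genes), and the median log2 fold change was 0.02. Spi1, which encodes PU.1 and drives myeloid and lymphoid genes, stood at 444 CPM with and 418 without in plate 1 and at 429 with and 419 without in plate 2 (log2 fold change 0.06 ± 0.18). Runx1, which the endothelial-to-haematopoietic transition needs, stood at 170 with and 151 without and at 181 with and 108 without (log2 fold change 0.45 ± 0.33, named after its values were seen). Lyl1, a helix-loop-helix factor of blood and vessel, stood at 362 with and 399 without and at 267 with and 541 without (log2 fold change -0.58 ± 0.19, edgeR adjusted p = 0.413). Runx1 stood at 145 and 177 CPM over all cells of the 2 AGM plates, and at 15.1 to 67.3 in fetal liver and bone marrow plates.

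Surface proteins used to sort stem cells had a small median change, though more of them were higher than lower in both plates. Of 18 genes 16 were tested and none passed. In both plates 7 were higher and 4 lower (24.9% and 26.2% of all genes), and the median log2 fold change was -0.02. Cd47, a signal against uptake by macrophages, stood at 536 CPM with and 506 without and at 595 with and 586 without. Cd34, a sialomucin of progenitors and endothelium, stood at 356 with and 370 without and at 536 with and 435 without (log2 fold change 0.12 ± 0.18). Procr, the endothelial protein C receptor and a stem cell marker, stood at 346 with and 373 without and at 229 with and 385 without (log2 fold change -0.43 ± 0.21, named after its values were seen). Procr was called lower in the unmatched cells (0.5% of all genes were).

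Signals and growth were examined by further lists. Among 25 tested cytokine receptor and JAK-STAT genes 9 were higher and 5 lower in both plates, and none passed. Among 15 tested Id, Smad, TGF-beta and BMP genes Id3 passed as lower, 5 were lower and 2 higher in both plates, and the median log2 fold change was -0.55. Genes high in fetal stem cells leaned lower, with 9 of 16 tested lower and 1 higher in both plates, a median of -0.30 and none past the threshold. The imprinted growth factor Igf2 stood at 1193 CPM with and 1341 without in plate 1 and at 979 with and 1315 without in plate 2, and its imprinted neighbour H19 stood at 727 with and 914 without and at 626 with and 927 without (log2 fold change -0.45 ± 0.13, edgeR adjusted p = 0.213). In the unmatched cells Igf2, H19, Grb10 and Cdkn1c were called lower (0.5% of all genes were).

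No cell cycle gene passed the test. Of 42 genes of S phase 7 were higher and 10 lower in both plates, of 53 genes of G2 and M phase 11 were higher and 15 lower. Per matched cell the G2 and M list took 0.813% of UMIs at the median with and 0.685% without Ptprc in plate 1, and 1.01% and 0.844% in plate 2. The S phase list took 0.445% with and 0.397% without in plate 1, and 0.426% and 0.523% in plate 2. Mki67, a gene of dividing cells, had a UMI in 24 of 39 cells with and 30 of 56 without Ptprc in plate 1, and in 10 of 14 and 18 of 34 in plate 2. Of 81 genes of cytosolic ribosomal proteins 29 were lower and 1 higher in both plates, with a median log2 fold change of -0.06, and none passed.

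**Figure D5:**
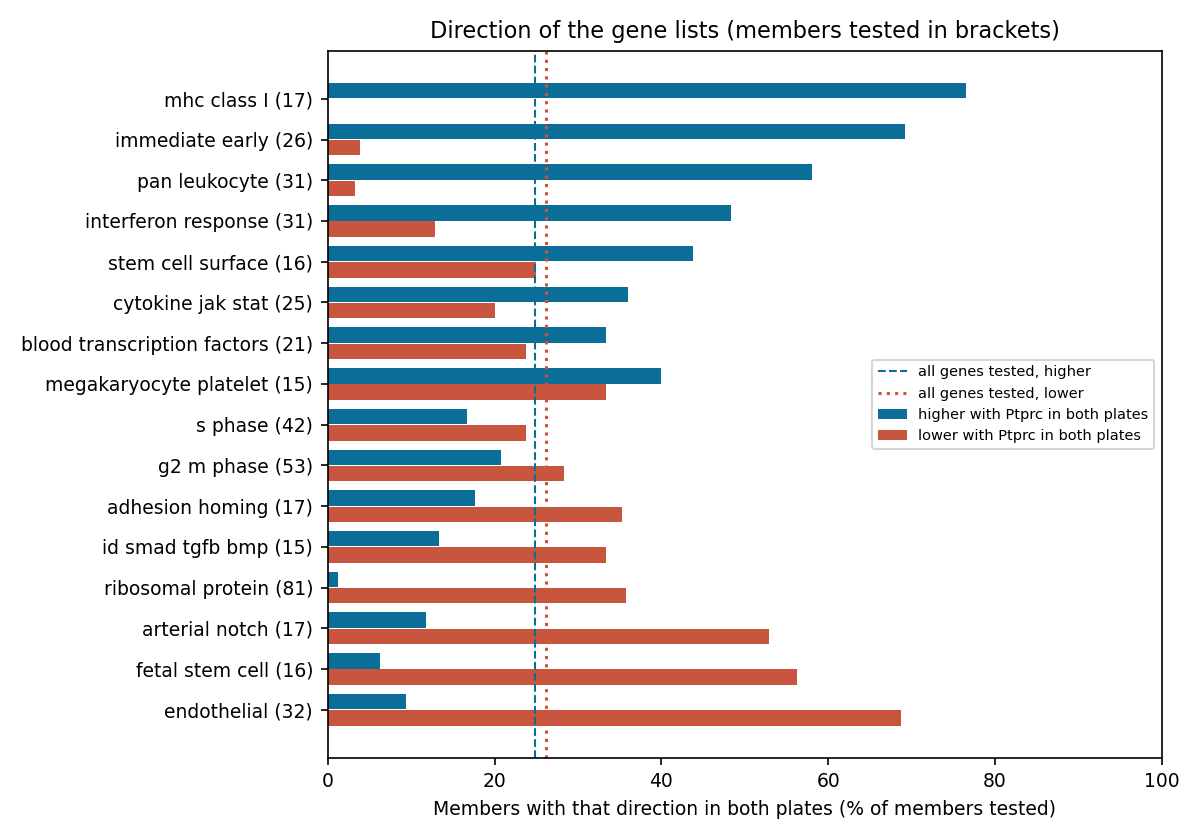
Share of tested members (horizontal axis, percent) that were higher (blue) or lower (red) with Ptprc in both plates, for each list with at least 10 tested members, whose number is in brackets; dashed and dotted lines are the shares over all genes tested, 24.9% higher and 26.2% lower. MHC class I, immediate early and leukocyte genes have the longest blue bars, and endothelial, fetal stem cell and arterial genes the longest red bars.

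Markers of other cell types were checked for the same cells. Of 17 macrophage genes 4 were tested, 3 were higher in both plates and none lower, and none passed. Lyz2, the lysozyme of myeloid cells, stood at 373 CPM with and 338 without in plate 1 and at 427 with and 339 without in plate 2, and Cd68, a lysosomal protein of macrophages, at 28.4 with and 5.19 without and at 21.9 with and 1.30 without. In plate 2 the cell with the highest leukocyte share held 92.7% of the Cd68 UMIs with Ptprc, and the 1.30 CPM rest on 3 UMIs. Without the top cell of each sum the Cd68 log2 fold changes were 2.29 and 0.64. C1qa had no UMI, Adgre1 had 0 UMIs with and without Ptprc in plate 1 and 24 with and 2 without in plate 2, and Csf1r had 43 with and 8 without in plate 1 and 13 with and 7 without in plate 2. Per matched cell the macrophage list took 0.00104% to 0.248% of UMIs with Ptprc and 0.00224% to 0.106% without in plate 1, and 0.0159% to 0.155% with and 0.00566% to 0.0969% without in plate 2. Cells with UMIs of at least 3 macrophage genes numbered 6 of 39 with and 6 of 56 without in plate 1, and 5 of 14 and 6 of 34 in plate 2. Without them the median log2 fold change was 0.73 for the leukocyte list and -0.47 for the endothelial list.

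Smooth muscle genes are given next, since some aortic cells carry them. Of 19 genes 4 were tested, with 2 lower and none higher in both plates, and none passed. In the unmatched cells Acta2 was called lower, and DESeq2 called 1 member lower in the matched sums (0.5% and 0.636% of all genes). Acta2, the actin of smooth muscle, stood at 37.2 CPM with and 110 without in plate 1 and at 28.2 with and 131 without in plate 2 (log2 fold change -1.89 ± 0.54, edgeR adjusted p = 0.200). It had a UMI in 27 of 39 cells with and 40 of 56 without in plate 1, and in 10 of 14 and 18 of 34 in plate 2. Pdgfrb and Col1a1, which mark mesenchyme, had 11 and 26 UMIs with Ptprc in plate 1 and 0 in the other 3 classes.

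The defining lymphoid and liver markers Rag1, Cd3e and Alb were at or near 0, and other members of these lists were not. Rag1 and Cd3e had no UMI, Cd79a had 31 UMIs in 1 cell with Ptprc in plate 2 and 1 UMI in 1 cell without, and Alb had 1 UMI in all. Cd79b, a chain of the B cell receptor complex, stood at 35.9 CPM with and 39.0 without in plate 1 and at 73.5 with and 20.4 without in plate 2. Id2, an inhibitor of helix-loop-helix factors, stood at 16.7 with and 9.74 without and at 50.9 with and 128 without, and Trf, the iron carrier transferrin made in liver, at 39.8 with and 54.4 without and at 85.8 with and 32.5 without. Each of these 3 genes pointed in opposite directions in the 2 plates.

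Of 8 tested red cell genes 4 were higher and 1 lower with Ptprc in both plates, and none passed. Alas2, the first enzyme of haem synthesis in red cells, had 4 UMIs, all in 1 cell without Ptprc in plate 1. Hbb-bt, an adult beta globin gene, stood at 170 CPM with and 50.5 without in plate 1 and at 131 with and 58.1 without in plate 2 (log2 fold change 1.47 ± 0.44, edgeR adjusted p = 0.215). A single cell held 73.9% of its UMIs without Ptprc in plate 2, and its sign turned at 5 or more against 0 to 4 Ptprc UMIs (-0.60). DESeq2 called 2 genes of the red cell list higher in the matched sums (0.738% of all genes were). Per matched cell the list took 0.0468% of UMIs with and 0.0308% without in plate 1, and 0.0632% and 0.0288% in plate 2. The part of red cell RNA in the other values was not tested.

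Of the platelet genes, Pf4 had a UMI in 27 of 39 cells with and 29 of 56 without in plate 1 and in 9 of 14 and 20 of 34 in plate 2. At 20000 UMIs per cell the shares with Pf4 were 20.5% and 14.3% in plate 1 and 21.4% and 15.6% in plate 2, and those with Gp9 were 25.6% and 28.6%, and 42.9% and 46.9%. In the remaining lists no gene passed in edgeR. Counts higher and lower in both plates were 6 and 5 of 15 tested platelet genes, 1 and 1 of 8 lymphoid genes, 3 and 6 of 17 adhesion and homing genes, 3 and 1 of 6 GIMAP genes and 0 and 2 of 3 venous genes. They were 1 and 0 of 2 epithelial and germ cell genes, 1 and 1 of 2 nerve genes, 0 and 1 of 2 liver genes and 0 and 3 of 9 genes of the mitochondrial genome. What part doublets or free RNA have in these values was not tested.

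Sex-linked RNA was counted because it marks cells of different embryos. In plate 1, Xist alone was seen in 12 of 39 cells with Ptprc and 8 of 56 without, and Y chromosome genes alone in 11 and 18. In plate 2, Xist alone was seen in 1 of 14 cells with and 12 of 34 without, and Y chromosome genes alone in 6 and 4. Each plate thus held cells of both sexes, and so of more than 1 animal. Both kinds were seen in 2 and 5 cells of plate 1 and in 0 and 2 of plate 2. Xist-only cells were thus the more frequent with Ptprc in plate 1 and without Ptprc in plate 2, and the part of this in the other values was not tested. With the cells that had both kinds left out, 4 genes passed, Id3, Crip2 and Rac2 among them.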

How the data were processed

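The authors deposited 1 table of UMI counts per plate, by gene symbol and well, not normalized. The submitters' processing notes name mm10, SAMtools, featureCounts and UMI-tools. Their versions, the annotation and the use of strand are not given in the labels used here. Counts of overlapping, antisense or near-identical genes may therefore include each other's reads. The AGM tables held 15924 symbols, 98.7% of them found in the mouse gene name table, and 0 columns of other samples were set aside. Detected genes had a median of 10.0 UMIs per cell in plate 1 and 8.0 in plate 2, so UMIs of 1 gene in 1 cell may not all be separate molecules, and intervals cover counting error only.

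Cells were matched within the plate on total UMIs, and raw counts were summed by plate and class without Ptprc. The 4 sums went into the quasi-likelihood test of edgeR 4.0.16 under R 4.3.3, with TMM, filterByExpr, plate as a block and Benjamini-Hochberg adjustment. There was 1 residual degree of freedom, and the common biological variation coefficient was 0.658. The prior degrees of freedom were infinite, so the test took each gene's spread from a trend over all genes. The script was tested on simulated data, where it recovered 35.3% of 4-fold and 51.4% of 8-fold changes. A gene that did not pass may therefore still differ. DESeq2 1.42.0 was an alternative, with other matchings, thinning, thresholds, filters and scalings and cells left out. Folds within a plate use a prior count of 2. Cells were sorted singly, were neither clustered nor typed, and no doublet caller was run. Positions come from GENCODE on GRCm38.

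The cells, the 27 lists and the tests were chosen with earlier results of these data known. Named genes are called genes with at least 50 CPM in the higher class and 1 sign in both plates. After them come uncalled genes with the largest smaller-of-2 plate folds, up to 12 per direction, of which the text gives some. The rest are up to 4 called or the 2 most abundant members of a list. Other genes are said to be chosen after their values were seen.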

Additional observations from a re-analysis of the deposited data

How the results depend on the processing

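Against 6 genes called in the matched sums, 93 were called without matching, 2 with matching within 0.05, 3 in cells above the plate's median UMIs, 22 with at least 2 Ptprc UMIs against 0, 10 with no filter on low counts and 147 by the DESeq2 test. None was called in 8 sums by plate, class and depth above or below the median (397 at an unadjusted p under 0.05), without cells with 3 macrophage genes (346), without the plate 2 cell with most leukocyte UMIs (390; added after seeing the data) or when cells with a UMI were counted in place of UMIs (21). With no replicate block 0 genes were called (303 at an unadjusted p under 0.05), and classes of 1 plate share that plate. That fit also had 9.74 prior degrees of freedom and a common variation coefficient of 0.727, against infinite and 0.658 in the main fit. The part of the block alone in the loss of calls was not tested. Leaving out a plate leaves no test. DESeq2 size factors gave 7, thinning 9, at least 5 Ptprc UMIs against 0 gave 9 and against 0 to 4 gave 6 (also added after seeing the data). The 6 genes had the same sign in all of these and in each plate alone.

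The endothelial median log2 fold change of -0.59 was -0.80 without matching, -0.75 in cells above the plate median, -0.0944 for cells with a UMI and -0.75 at 5 or more against 0 to 4 Ptprc UMIs. The arterial median of -0.62 was -1.50 without matching, -1.36 thinned, -1.48 matched within 0.05, -1.13 in 8 sums, -1.38 above the plate median, -1.50 with 2 Ptprc UMIs, -0.86 without cells with Xist and Y chromosome UMIs, -0.88 without macrophage genes, -1.24 with no filter, -1.10 at 5 or more Ptprc UMIs against 0 and -0.91 against 0 to 4. With 1 plate left out the medians ranged from -0.60 to -0.42 (endothelial), -2.71 to -0.71 (arterial) and 0.31 to 1.34 (leukocyte), with other genes passing the filter.

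Signs turned as follows, the cause not tested. Counting cells with a UMI gave log2 fold changes of -0.054 for Spi1, 0.0085 for Lyl1, -0.0237 for Cd47, -0.0847 for Cd34, -0.0539 for B2m and for Psme1, -0.35 for Plac8 and 0.0179 for Bmx. Without matching Spi1 was -0.0317 and B2m -0.0572; thinned, Runx1 was -0.0050; above the plate median Lyz2 was -0.0808 and Cd79b -0.0263; in 8 sums Cd68 was -0.0928; without macrophage genes Cd34 was -0.0701, B2m -0.0057 and Trf -0.24. At 5 or more Ptprc UMIs against 0 Cd47 was -0.0715, and against 0 to 4 Hes1 was 0.18, Bmx 0.55 Procr 0.15, Hbb-bt -0.60 and Trf -0.0621; Trf was -0.49 against 0. With 1 plate left out Cd34 ranged from -0.0574 to 0.31, Psme1 from -0.0259 to 0.18, Ifitm3 from -0.23 to 0.063, Id2 from -1.31 to 0.76, Cd79b from -0.12 to 1.82 and Trf from -0.45 to 1.39. Plate 2, with 12 cells a class, sets the depth limit.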
